A study of Caenorhabditis elegans with 2 samples.

Results

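The genes pck-2 and pck-1 encode phosphoenolpyruvate carboxykinases of Caenorhabditis elegans, and the sites recovered with tagged DAF-8 at these 2 genes are described here. A peak was given to a gene when its summit lay between 1000 bp upstream of the gene start and the gene end in the Ensembl annotation, which made 2 windows out of those of 19985 protein-coding genes. In the list that compares both replicates, 20 of 101032 ranked peaks fell in these windows, 11 at pck-2 and 9 at pck-1. The pair was selected on the deposited peak signals and reproducibility values themselves, which single out a peak at pck-2 and none at pck-1, so the contrast between the genes is a description and no test of it is given. With 2 replicates an exact sign-flip test could in any case not go below p = 0.5.

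The data are ChIP-seq (chromatin immunoprecipitation with sequencing) peak lists from whole worms at the L4 stage, 47 hours old, synchronised by bleaching and starvation as L1 larvae. Both biological replicates belong to 1 group, strain OP790, which is unc-119 (tm4063) and carries the transgene wgIs790 with daf-8 fused to TY1, EGFP and 3xFLAG tags together with unc-119(+). An antibody against GFP was used, so what was recovered is the tagged protein made from a transgene, with all tissues of the worm mixed. The labels name a possible control without its kind, and neither an untagged nor an input library was analysed here.

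Phosphoenolpyruvate carboxykinase turns oxaloacetate into phosphoenolpyruvate, the entry step of gluconeogenesis, by which cells make sugar from amino acids and, in worms, from fat through the glyoxylate cycle. DAF-8 is a receptor-regulated SMAD, a transcription factor of the TGF-beta pathway that decides between growth and the dauer larva, a resting stage known for its reliance on stored fat. SMAD proteins bind short DNA elements with the core GTCT, which reads AGAC on the opposite strand.

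The sequence around the start of pck-1 and at its peaks is shown as an example of elements for a SMAD beside low deposited signals. Such elements are not particular to pck-1, and pck-2 has 1 at its summit 468 bp upstream of the start (signal 17.3). The first line is the 300 bases from 250 before to 50 after the gene start (III 66211 to 66510). The other lines are the 101 bases centred on its strongest summit, in a coding exon (III 63463 to 63563), and on the summit upstream of its start (III 66538 to 66638). All lie on chromosome III and are from the RefSeq genome of the ce11 (WBcel235) assembly, on the minus strand, 5′ to 3′, with GTCT and its reverse complement AGAC in capitals.
pck-1 promoter: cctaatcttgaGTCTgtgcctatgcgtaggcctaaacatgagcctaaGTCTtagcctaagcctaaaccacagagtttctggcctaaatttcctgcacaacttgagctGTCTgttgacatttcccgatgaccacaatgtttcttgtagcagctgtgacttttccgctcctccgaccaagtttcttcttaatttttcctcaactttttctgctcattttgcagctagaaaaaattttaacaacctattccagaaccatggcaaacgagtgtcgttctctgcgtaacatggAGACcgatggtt
pck-1 strongest summit: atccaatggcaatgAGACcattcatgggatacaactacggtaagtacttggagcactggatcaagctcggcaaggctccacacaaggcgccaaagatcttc
pck-1 upstream summit: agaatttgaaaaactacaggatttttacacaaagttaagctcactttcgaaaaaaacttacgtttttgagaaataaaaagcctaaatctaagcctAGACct

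The gene pck-2 (WBGene00011232) lies on the plus strand of chromosome I at 7866136 to 7872100 in the ce11 assembly, and pck-1 (WBGene00021043) on the minus strand of chromosome III at 62888 to 66260. Their layout differs. The annotation gives pck-2 5 transcripts with 5 start sites and an intron of 3378 bp after the second exon of the full-length form, whereas pck-1 has 1 transcript whose longest intron is 570 bp. The encoded proteins, 654 and 651 residues in the longest form of pck-2 and in pck-1, were identical at 71.9% of 641 aligned residues. The coding sequences shared no identical run longer than 28 bases.

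A single peak of pck-2 stood above all others of the pair, and it was the only one of the pair that the authors kept at their threshold. It spanned I 7869073 to 7869396, with its summit 3099 bp downstream of the gene start. The annotation places that summit inside the long intron of the full-length transcript R11A5.4a.1 and at the same time 139 bp downstream of the start of R11A5.4b.1, in the 5′ UTR of 805 bp of that shorter form. Of the other starts of the gene, that of R11A5.4c.1 lay 792 bp downstream of the summit and that of R11A5.4d.1 2679 bp upstream of it.

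The signal of a peak is the authors' value, and the sources used here do not say how it was scaled for depth. In the true-replicate list, which compares both replicates, and in the list from pooled reads it is the signal in the pooled reads. It was 134.991 in both, a single value that the lists share and no repeat of the measurement. Replicate 1 alone had 77.4 and replicate 2 alone had 58.5 at this peak, a mean of 67.95 ± 13.4 (SD, n = 2). The summits of the separate replicate lists lay at 3103 and 3100 bp from the gene start, within 4 bp of the summit given above.

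Each thresholded list keeps peaks with a low irreproducible discovery rate (IDR), a measure of how poorly a peak repeats between the compared lists. In the true-replicate list the highest kept value was just under 0.01. The pck-2 peak had an IDR of 0.000198 in the true-replicate list and 0.000277 in the pooled list. Within single replicates, where 2 subsets of the reads were compared, it had 0.000359 in replicate 1 and 0.0029 in replicate 2. It was kept in all 4 thresholded lists. A kept peak fell in the windows of 0.846% of protein-coding genes in the true-replicate list, 1.02% in the pooled list, 0.23% in replicate 1 and 0.27% in replicate 2. By signal it stood 11th of 240 kept peaks in the true-replicate list, 11th of 282 in the pooled list, 5th of 62 in replicate 1 and 25th of 77 in replicate 2.

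No peak of pck-1 was kept in any of the 4 lists. The strongest ranked peak of pck-1 reached 29.4 at an IDR of 0.429. It lay in a coding exon, 2747 bp downstream of the start, with 15.5 and 13.6 in the 2 compared lists (mean 14.5 ± 1.34, SD, n = 2). In the separate list of replicate 2 no ranked summit lay between 1552 and 3552 bp, so 13.6 does not stand in that list.

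**Figure D1:**
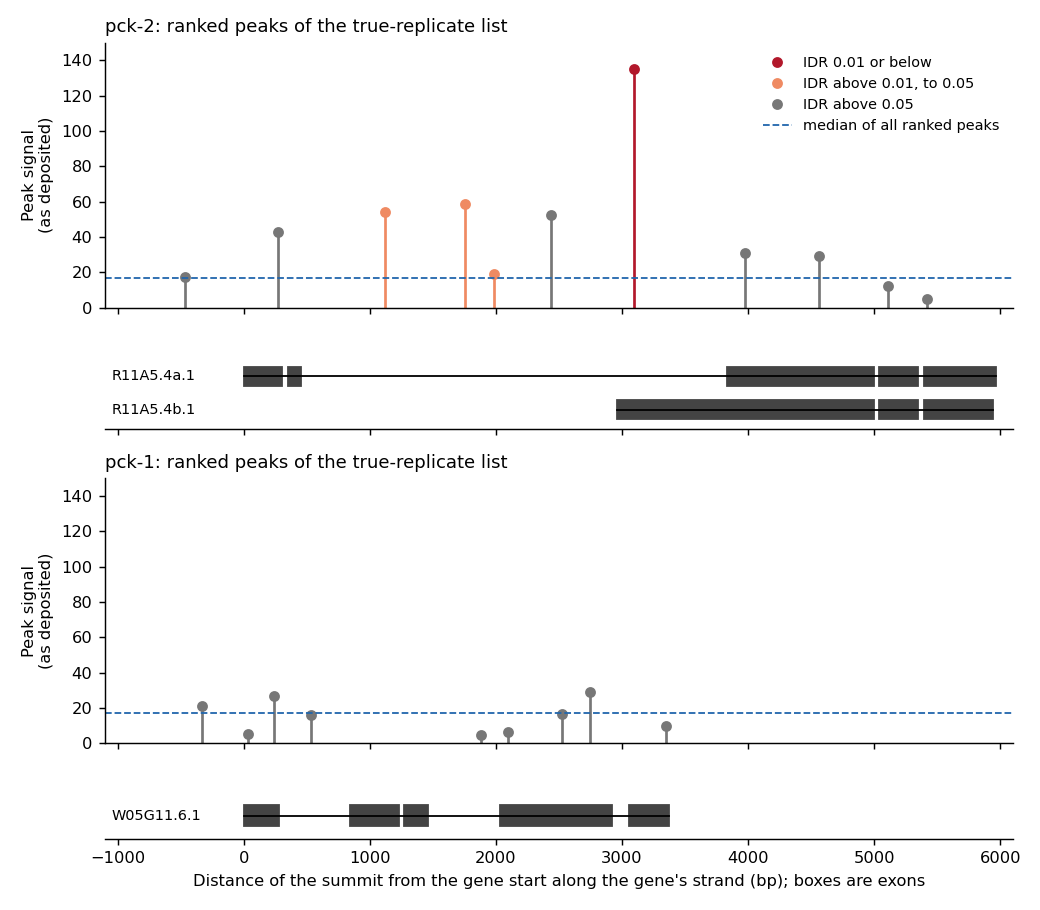
Ranked peaks of the true-replicate list along pck-2 (above) and pck-1 (below), with the deposited peak signal (vertical axis) at the distance of the summit from the gene start (horizontal axis, bp), colours for the IDR and exons as boxes. At pck-2 the summit at 3099 bp reaches 134.991 where the shorter transcript starts, and at pck-1 no summit exceeds 29.4.

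The pck-2 window held further strong peaks, all weaker than the kept one. Summits stood at 1119 bp (signal 54.3, IDR 0.0197), 1758 bp (58.7, IDR 0.0138) and 2440 bp (52.3, IDR 0.272) from the gene start, all inside the long intron, which runs from 453 to 3830 bp. Near the gene start itself a peak of 42.8 (IDR 0.118) had its summit at 274 bp, just inside the coding part of the first exon. With the kept peak and a summit at 1987 bp (19.1, IDR 0.0137), 5 of the 11 ranked summits fell in that intron.

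The remaining pck-2 peaks were weaker. Upstream of the gene the signal was 17.3 at -468 bp. In the exons that all forms share, signals were 31.1 at 3975 bp, 29.2 at 4564 bp, 12.3 at 5110 bp and 4.63 at 5420 bp. Of the 11 peaks, 9 had a signal above the median of all ranked peaks, 17.01, and 4 had an IDR of 0.05 or below. Among these 4, the peaks at 1758 and 1987 bp carry the same list values and do not count as separate sites. A ranked peak at that looser limit occurs in the windows of 2.86% of protein-coding genes. Of the 9 peaks of pck-1, 3 were above the median, and the lowest IDR was 0.312, at a summit 537 bp downstream of the start with a signal of 16.1.

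Peaks of pck-1 were spread along the gene. Besides the strongest, the signal was 26.8 in the first exon, at 240 bp, with 18.1 in list 1 and 9.96 in list 2. It was 20.99 at 328 bp upstream of the start, with 12.3 and 11.1. The other 6 ranged from 4.69 to 16.6. A summit in the 3′ UTR had 5.14 in list 1 and 31.5 in list 2, the widest difference between compared lists at this gene. Single peaks of a replicate can be paired with more than 1 peak of the joint list, as at 2525 and 2747 bp of pck-1 and at 1758 and 1987 bp of pck-2, where both members of each pair carry the same list values. The pck-1 peaks at 36, 240 and 537 bp likewise share 1 list 1 value, 18.1, which stands at 132 bp in the replicate 1 list. List 1 thus gives no separate value for the peak at 537 bp, which had the lowest IDR of pck-1.

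Ranked peaks of the separate replicates overlapped throughout pck-2. All 8 ranked peaks of replicate 1 at pck-2 were overlapped by a peak of replicate 2, and all 9 of replicate 2 by replicate 1. At pck-1, 2 of 4 and 3 of 6 peaks were overlapped, 50% in both directions. Over all ranked peaks the shares were 48.9% of those of replicate 1 and 44.7% of those of replicate 2, with an overlap of at least 1 bp. Neighbouring peaks are not independent, so these shares were not tested. In the long intron of pck-2, replicate 1 had 37.3 at 1126 bp, 35.6 at 1781 bp and 36.2 at 2442 bp. Replicate 2 had 23.3 at 1022 bp, 25.8 at 1935 bp and 13.2 at 2409 bp. These 3 intron peaks were thus weaker in replicate 2, and their summits lay up to 154 bp away. Near the gene start the order turned round, with 18.1 in replicate 1 and 25.8 in replicate 2. The exon peaks at 3971 and 4563 bp of replicate 1 had 26.7 and 25.4, against 3.22 and 4.17 at 3867 and 4575 bp in replicate 2. A further replicate 2 peak of 17.97, at 4372 bp, overlaps the replicate 1 peak at 4563 bp. The kept peak was thus the only pck-2 site above 40 in either replicate.

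**Figure D2:**
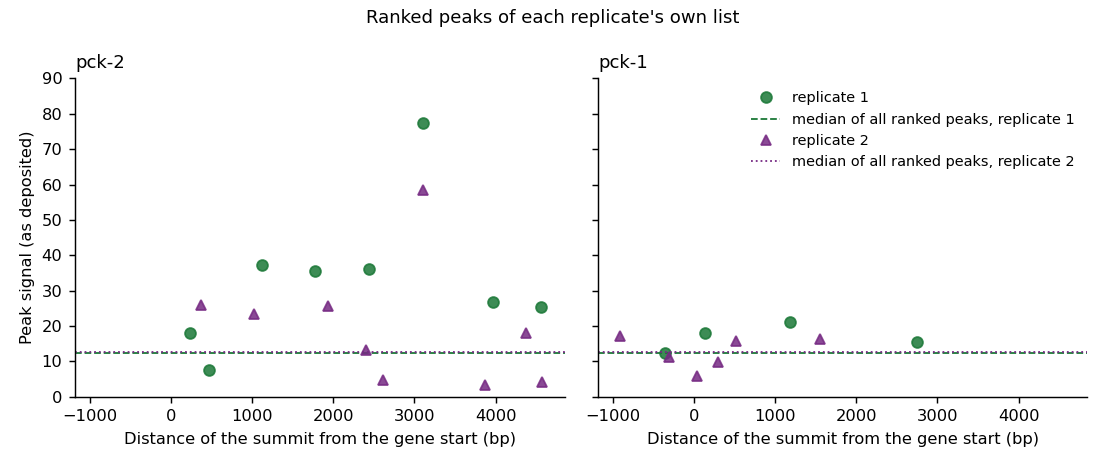
Ranked peaks of the separate list of replicate 1 (circles) and replicate 2 (triangles) at pck-2 (left) and pck-1 (right), with peak signal against distance of the summit from the gene start; lines are the medians of all ranked peaks. Both replicates have their highest pck-2 peak at 3100 to 3103 bp (77.4 and 58.5), while at pck-1 their highest peaks, 21.1 and 17.3, lie at different places.

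In both replicates the strongest peak of pck-2 exceeded that of pck-1. Replicate 1 gave 77.4 for pck-2 against 21.1 for pck-1, and replicate 2 gave 58.5 against 17.3. The ratios of pck-2 to pck-1 were 3.67 and 3.38, a mean of 3.52 ± 0.207 (SD, n = 2), and the ratio was 4.6 in the true-replicate list. The highest pck-1 peak lay 1183 bp downstream of the start in replicate 1 and 906 bp upstream of it in replicate 2, so these values do not come from 1 site. Replicate 2 had a stronger peak, 31.5, with its summit 180 bp past the end of pck-1 and thus outside the window. It is the list 2 value of the 3′ UTR peak given above. With windows that run to 250 bp past the gene end, chosen after the data were seen, the ratio was 1.86 in replicate 2, with 58.5 at pck-2 and 31.5 at pck-1. It was 3.67 in replicate 1. Without the kept peak the ratio was 2.0 in the true-replicate list, and that of the median signals of the peaks was 1.94, with 31.1 at pck-2 and 16.1 at pck-1.

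Near the gene start alone the contrast depended on where the window ends. Up to 250 bp downstream of the start, pck-2 reached 17.3 and pck-1 26.8, a ratio of 0.646. That limit falls between the pck-1 summit at 240 bp and the pck-2 summit at 274 bp. Up to 300 bp, a limit chosen after the data were seen, pck-2 reached 42.8 and pck-1 26.8, a ratio of 1.6. With the promoter windows of all annotated starts, also chosen after the data were seen, the ratio was 5.04. The number of ranked peaks per kb of window was 1.58 at pck-2, 2.06 at pck-1 and 1.05 over all protein-coding genes in the true-replicate list. Its order differed between the replicates, with 1.15 at pck-2 and 0.915 at pck-1 in replicate 1, and 1.29 and 1.37 in replicate 2. The windows were 6965 bp for pck-2 and 4373 bp for pck-1, against a median of 3026 bp over all genes, and a longer window has more chances of a high peak.

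Among 18173 protein-coding genes with a ranked peak, pck-2 stood 12th by the signal of its strongest peak and pck-1 7954th. The median over these genes was 27.8 and the 90th percentile 41.6. By this measure 0.0605% of genes stood above pck-2 and 43.8% above pck-1. In the separate lists pck-2 was 5th of 15299 genes in replicate 1 and 24th of 15878 in replicate 2. The places of pck-1 were 3136th in replicate 1 and 7805th in replicate 2.

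The gene pck-3 (WBGene00019151, IV 5896641 to 5899112) shares the name but is more distant, with 30.2% identity to pck-2 and 30.7% to pck-1 at the protein level. Its strongest peak, 271 bp upstream of the start, had 25.8 with an IDR of 0.489, and it ranked 10599th. In replicate 1 its strongest peak had 12.3 against 21.1 for pck-1, and in replicate 2 it had 18.3 against 17.3. The order of pck-3 and pck-1 therefore changed between replicates, whereas pck-2 stood above both in each.

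**Figure D3:**
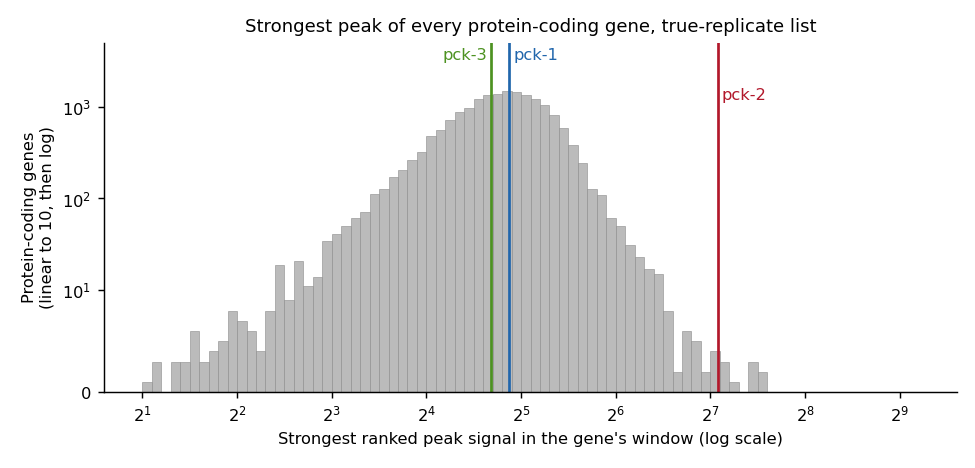
Number of protein-coding genes (vertical axis, linear up to 10 and logarithmic above) by the signal of the strongest ranked peak in their window (horizontal axis, log scale) in the true-replicate list, with lines at the 3 genes of the name. The line for pck-2 stands in the right tail at 134.991, and those for pck-1 (29.4) and pck-3 (25.8) stand near the median of 27.8.

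Genes with a strongest peak most like that of pck-2 were few. By distance on the log2 scale over the signals of both compared lists, 2 of 18173 genes lay within 0.25 of pck-2, against 1151 within that distance of pck-1. The nearest were frm-7 (distance 0.0466, signals 75.3 and 59.5) and pxn-1 (0.0932, 77.2 and 62.4). The summits of both lie on a snoRNA gene, C51F7.4 within frm-7 and ZK994.7 within pxn-1. Next came rpl-20, a gene for a large-subunit ribosomal protein, and Y17G9B.5, which share 1 peak (0.518, 54.3 and 61.6), and nhl-2 (0.52, 53.99 and 59.01). The likeness is over 2 lists only and is a description.

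Unlike the peaks of frm-7 and pxn-1, the kept peak of pck-2 did not lie on a small RNA gene. This was not particular to pck-2. The peak shared by rpl-20 and Y17G9B.5 was 44119 bp from the nearest one, and that of nhl-2 was 109897 bp away. Of tRNA, snRNA, snoRNA and rRNA genes, the nearest to pck-2 was the snoRNA gene R11A5.8, 6031 bp from the gene and 9130 bp from the summit. For pck-1 it was the snoRNA gene W05G11.7, 12206 bp away. The protein-coding gene R11A5.6 lies on the opposite strand within the long intron of pck-2, at I 7867577 to 7867918, and was named after values were seen. The intron peak at 1758 bp had its summit 24 bp inside the start of R11A5.6, so that peak cannot be given to pck-2 alone. The summit of replicate 1 lay 1 bp inside that start and the summit of replicate 2 was 153 bp upstream of it. The summits at 1987 and 2440 bp also lay less than 1000 bp upstream of that start. By the window rule these peaks, too, cannot be given to pck-2 alone. The kept peak was 1317 bp from the start of R11A5.6 and outside its window.

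Downstream, suro-1, also named after values were seen, meets pck-2 tail to tail with 9 bp of overlap. Another peak kept in the true-replicate and pooled lists lay there just outside the pck-2 window, at I 7872263 to 7872586. Its summit was 325 bp past the end of pck-2, in an intron of suro-1. The signal there was 71.7 at an IDR of 0.00312. This peak was not kept in either replicate alone, where it had 34.1 (IDR 0.0433) in replicate 1 and 39.9 (IDR 0.0346) in replicate 2. The last peak inside the window, at 5420 bp, had 4.63. Upstream of pck-2 the first peak outside the window had 2.21. For pck-1 the first peaks outside had 34.1, 83 bp beyond the upstream edge, and 33.5, 205 bp beyond the gene end. Both exceeded every peak inside the window, and neither was kept.

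Around the start of pck-1 the sequence printed above holds GTCT or AGAC at 4 places, while the same window at the gene start of pck-2 holds 1. At the other starts of pck-2 it holds 3 (R11A5.4a.2), 2 (R11A5.4d.1), 1 (R11A5.4c.1) and 0 (R11A5.4b.1, the start next to the kept peak). The R11A5.4b.1 window ends before the kept summit, which lies 139 bp past that start. Of 19984 promoters of this length, 77.0% hold at least 1. Within 50 bp of the summit, the strongest peak of pck-2 and that of pck-1 each had 1. The highest count at either gene was 7, at the pck-2 summit at 2440 bp, which lies in a tandem repeat. At least 1 was in 50.4% of the 240 kept windows and in 39.9% of all ranked windows.

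Longer elements were rare at both genes. The palindrome GTCTAGAC and the element GCGCGC, on either strand, were in none of the windows of the ranked summits or promoters of pck-2 and pck-1. GCGCGC was in 9.58% of kept windows and 0.979% of all ranked windows, and GTCTAGAC in 0.417% and 0.0633%. The letters GTAAACA, which the FOXO factor DAF-16 is known to bind, occurred once within 50 bp of the pck-1 summit at 537 bp, and are found in 1.01% of ranked windows. CTTATCA, the reverse complement of an element that intestinal GATA factors are known to bind, occurred once at the pck-1 summit at 240 bp and is found in 1.7% of ranked windows. Within 100 bp it also occurred 2 times at the pck-2 summit at 1119 bp, and is found in 3.43% of ranked windows of that width. A match to letters is a description, and none of these places a factor.

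The base composition of the kept pck-2 peak was unlike that of most kept peaks. G and C made up 32.7% of the 101 bases at its summit, against 48.7% ± 9.69 (SD over 240 windows) at kept peaks and 38.7% ± 8.74 over all ranked windows. Of the 240 kept windows, 16 had a share as low or lower, 6.67%. At the strongest pck-1 summit the share was 49.5%.

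Other genes of carbon metabolism had no kept peak. The list held 55 genes for glycolysis, gluconeogenesis, pyruvate dehydrogenase, the citric acid and glyoxylate cycles, glycerol 3-phosphate and trehalose synthesis, pck-3 included. Of these, 0 had a kept peak in any of the 4 lists. For a random draw of genes this allows a share of up to 5.45% (3 counts of 55, 95% confidence). That limit is above the background of 0.846%, so 0 cannot be told from the background. The genes were listed by name and are no random draw, so the limit is a description. Ranked peaks with an IDR of 0.05 or below occurred at 4 of them, 7.27%, against the background of 2.86%. They were icl-1, the isocitrate lyase and malate synthase of the glyoxylate cycle (lowest IDR 0.0113), tps-2, a trehalose 6-phosphate synthase (0.0142), idh-1, an isocitrate dehydrogenase (0.0251), and enol-1, the enolase that works on the product of phosphoenolpyruvate carboxykinase (0.0387). The background was not matched for window length. The windows held 20 ranked peaks at tps-2, 8 at icl-1 and 4 each at idh-1 and enol-1, against a median of 3 over all genes. At an IDR of 0.001 or below, which 0.185% of all genes reach, pck-2 had 1 peak and the 55 genes had none.

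The 6 strongest of these genes were far below pck-2. The signals were 53.99 for enol-1, 49.6 for icl-1, 47.1 for tps-2, 45.2 for gpi-1, the glucose 6-phosphate isomerase, 45.1 for gpd-2, a glyceraldehyde 3-phosphate dehydrogenase, and 44.96 for idha-1, an isocitrate dehydrogenase subunit. At icl-1 the strongest peak had 7.1 in list 1 and 33.98 in list 2, with an IDR of 0.675, so its low IDR belongs to another peak. Of other enzymes that gluconeogenesis uses and glycolysis does not, the signals were 42.2 for pyc-1, the pyruvate carboxylase that makes oxaloacetate, and 39.6 for fbp-1, the fructose 1,6-bisphosphatase. Over the 55 genes the median was 33.7 against 27.8 over all genes, with a range from 14.4 to 53.99. None exceeded pck-2, which 0.0605% of all genes with a ranked peak do. Of the 55, 40 exceeded pck-1, 72.7%, against 43.8% of all genes with a ranked peak. Window lengths were not matched in these comparisons either.

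**Figure D4:**
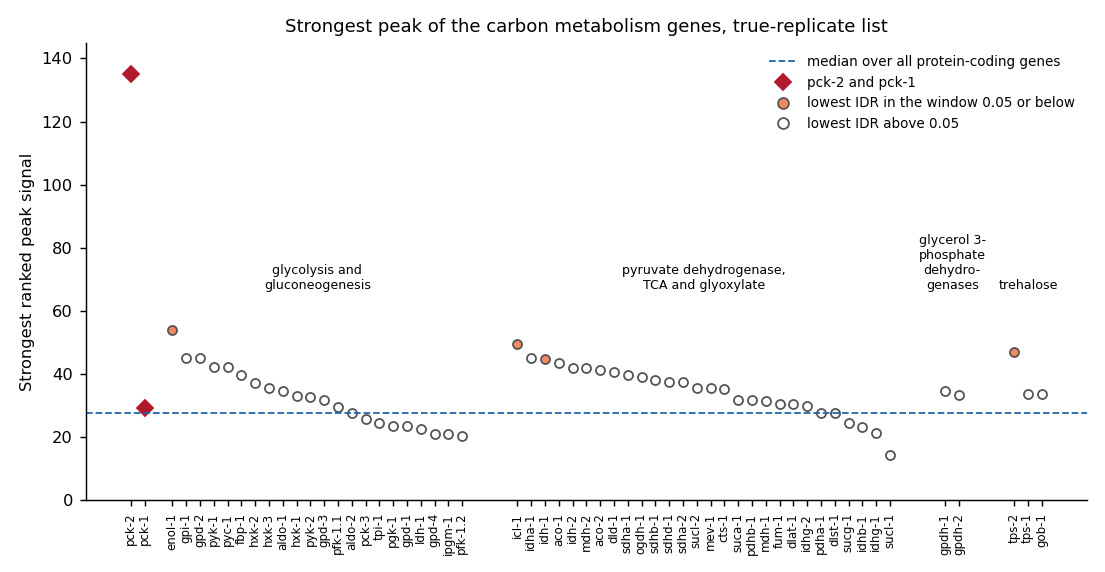
Signal of the strongest ranked peak (vertical axis) of pck-2 and pck-1 (diamonds) and of 55 genes of carbon metabolism in 4 groups (circles, filled where the lowest IDR in the window is 0.05 or below), true-replicate list; the line is the median over all protein-coding genes. The circles lie between 14.4 and 53.99, all below the 134.991 of pck-2, and 40 of the 55 lie above the 29.4 of pck-1.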

How the data were processed

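The samples are 2 biological replicates of 1 group. The labels do not say how their cultures were separated. The files are peak lists on ce11, the assembly that Ensembl calls WBcel235, in 4 pairs of a ranked and a thresholded list (true replicates, pooled reads, and each replicate alone). Peak signals are the authors' deposited values, and those of the true-replicate and pooled lists are signals in the pooled reads. The sources used here give neither their scaling nor the peak caller and aligner. IDR values were converted from the deposited −log10 column. The score of each of 2 subsets of the pooled reads, as deposited, was read but is not reported. By value, list 1 of the true-replicate list is replicate 1 and list 2 is replicate 2, which no label states. Some list values, such as 13.6 at the strongest pck-1 peak, are not in the separate ranked list of the replicate. Lists hold no read counts, so depth is unknown and counting intervals are not given.

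Summits were assigned to genes of Ensembl release 115, and sequence came from RefSeq, with coordinates counted from 1. Peaks were not merged. Python 3.11.15, pandas 2.3.3, NumPy 2.4.6 and Biopython 1.88 (alignment of proteins and coding sequences translated from the annotation) were used. Gene assignment and motif search were tested on simulated data. The members and lists were chosen with earlier results of these data known. Genes named besides pck-2 and pck-1 are pck-3, the 6 carbon metabolism genes of highest signal, the 5 nearest to pck-2 in both list signals, and genes said in the text to be named after values were seen. Carbon metabolism genes at an IDR of 0.05 or below, pyc-1 and fbp-1 were also named after values were seen. Alternatives were other windows, IDR limits, lists and summit widths, and each replicate alone.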

Additional observations from a re-analysis of the deposited data

How the results depend on the processing

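The strongest signals moved with the list and the window. Each replicate alone gave 58.5 to 77.4 for pck-2, 17.3 to 21.1 for pck-1 and 3.38 to 3.67 for their ratio. In the promoter window that ends 250 bp past the gene start, pck-2 had 17.3 with 0 kept peaks and rank 10249, pck-1 stood at rank 4363, and the ratio turned round to 0.646. By construction that window leaves out the kept peak, and it ends between the pck-1 summit at 240 bp and the pck-2 summit at 274 bp (42.8). A window from 2000 bp upstream gave 34.1 for pck-1 and a ratio of 3.96. Without replicate 2 the rank of pck-1 was 3136, and the replicates alone spanned 3136 to 7805. At an IDR of 0.05, pck-2 had 4 peaks and 4 carbon metabolism genes had at least 1. The pck-2 peaks at 1758 and 1987 bp share the same list values. Of the alternatives chosen after the data were seen, leaving out the kept peak gave a ratio of 2.0, promoter windows of all annotated starts gave 5.04, and a promoter window to 300 bp gave 1.6. Windows to 250 bp past the gene end gave 4.03 in the true-replicate list, 3.67 in replicate 1 and 1.86 in replicate 2. The causes of the other shifts were not tested. The count of 0 kept peaks at pck-1 held in every alternative run. Within 25 and 100 bp of the strongest pck-1 summit GTCT or AGAC occurred 0 and 3 times. Where the overlap had to cover 0.5 of the shorter peak, replicate 2 shared 77.8% of its pck-2 peaks and replicate 1 shared 100%. At pck-1 the share stayed at 50% in both directions. Over all ranked peaks it was 38.0% in replicate 1 and 33.5% in replicate 2 by this rule. No paired analysis was possible because there is 1 group and no test. Depth is unknown, and without an untagged library the part of the signals that does not need the tagged protein was not tested.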

Other observations

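These values were singled out after the data were seen. The pck-2 summit at 2440 bp lies in a tandem repeat with a unit of 15 bp that spans 133 bp of the long intron, from 2380 to 2512 bp, and 83.1% of its letters equal the letter 1 unit on. The 101 bases at that summit hold AGAC 7 times on the gene strand, each 15 bp from the next, and 65.3% G and C. A count of 7 or more is reached in 31 of 101032 ranked windows, 0.0307%, and in 1 of 240 kept windows. The peak had 36.2 in replicate 1 and 13.2 in replicate 2 and was not kept. The sources used here do not say how reads from repeats were placed, and its part in the signal was not tested.

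The promoter of pck-1 holds GCCTAA, the letters of the worm telomere repeat, 5 times on the gene strand, against 0 in the promoter windows of pck-2 at the gene start and at the start of R11A5.4b.1. Of 19984 promoters 30 hold as many or more, 0.15%, and 6.01% hold any. The gene lies 62.9 kb from the end of chromosome III.

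A count of 5 peaks with signals above 40 in 1 gene window occurs at 3 of 19985 protein-coding genes, pck-2, pod-2 and mnk-1, or 0.015%. No gene has more. The pair was selected on these signals, and the weakest of the 5 at pck-2 had 42.8, so the share is a description only. The peaks at 1758 and 2440 bp, both among the 5, cannot be given to pck-2 alone. Their summits also lie in the window of R11A5.6. The windows of pod-2 (16921 bp) and mnk-1 (13624 bp) are longer than that of pck-2 (6965 bp). Adjacent ranked summits of pck-2, all 11 counted, had a median spacing of 614 bp, against 676 bp between adjacent summits of the whole list. The strongest peaks had 134.991 at pck-2, 69.3 at mnk-1 and 51.8 at pod-2.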
